A study of Homo sapiens with 10 samples.

Results

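The 10 genes described here are standard target genes of the unfolded protein response of the endoplasmic reticulum (ER): HSPA5, HSP90B1, PDIA4, CALR, DNAJB9, SDF2L1, HERPUD1, SEL1L, EDEM1 and XBP1. They were listed by name, as known targets and with earlier results of these data known, and all 10 had a row in every table and passed the filter on low values, among 57993 gene symbols and 17779 genes tested. RNA was sequenced from 10 libraries of HCT116, a human colorectal carcinoma cell line. Of these libraries, 3 came from KDM5A-/- cells given an empty vector, 3 from KDM5A-/- cells given a plasmid for wild-type KDM5A, 2 from KDM5A-/- cells given a plasmid for a mutant KDM5A, and 2 from parental HCT116 cells given an empty vector. KDM5A takes methyl groups off lysine 4 of histone H3, a mark of active promoters. All cells were transfected, grown for 24 h and sorted for GFP, so every group went through a transfection and a sort. The knockout cells were kept in medium with 300 µg/mL G418 and the parental cells were not, so genotype and G418 cannot be told apart between them. The labels give neither the change that makes the mutant, the number of knockout clones, nor whether a group's libraries are separate cultures; the p-values therefore cover only the spread among these samples, which may be technical.

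Proteins that enter the secretory pathway fold in the ER, and unfolded protein there is sensed by IRE1 (gene ERN1), PERK (EIF2AK3) and ATF6. IRE1 splices XBP1 mRNA into the form that encodes an active transcription factor. ATF6 is cut in the Golgi to release one, and PERK slows translation while ATF4 is made. XBP1 and ATF6 raise genes for chaperones, folding enzymes, export and ER-associated degradation, in which misfolded proteins are moved to the cytosol and destroyed. HSPA5 (BiP) is the ER Hsp70 chaperone and also holds the sensors inactive, and its mRNA is a common readout of the response. Gene-level values do not separate spliced from unspliced XBP1, so its splicing was not measured here.

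Stretches of promoter are shown because ER stress is known to act on some of these genes through 2 short elements. The ER stress response element (ERSE) was searched as CCAAT, any 9 bases and CCACG, and ERSE-II as ATTGG, any base and CCACG, on both strands, in the 300 bases from 250 before to 50 after each RefSeq gene start (GRCh38.p14). All 10 genes matched the table by symbol, with 12 windows. ERSE was in 0.0769% of 35116 windows and ERSE-II in 0.0541%, and 6 of the 10 genes held one or the other. Capitals mark the fixed letters of the element, and each line is written 5′ to 3′ on the strand of the gene. An element on the opposite strand therefore appears as its reverse complement.
HSPA5 (ERSE, chr9:125241371-125241429, minus strand): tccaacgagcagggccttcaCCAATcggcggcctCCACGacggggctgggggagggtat
XBP1 (ERSE, chr22:28800583-28800641, minus strand): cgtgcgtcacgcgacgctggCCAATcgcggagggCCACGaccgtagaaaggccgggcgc
CALR (ERSE on the opposite strand, chr19:12938364-12938422, plus strand): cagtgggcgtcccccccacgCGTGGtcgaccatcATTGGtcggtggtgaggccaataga
HSP90B1 (ERSE, chr12:103930211-103930239, plus strand): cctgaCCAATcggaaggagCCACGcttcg
HSP90B1 (ERSE on the opposite strand, chr12:103930316-103930344, plus strand): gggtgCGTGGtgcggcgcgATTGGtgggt
HERPUD1 (ERSE-II, chr16:56932005-56932055, plus strand): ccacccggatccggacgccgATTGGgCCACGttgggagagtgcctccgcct
SDF2L1 (ERSE-II on the opposite strand, chr22:21642094-21642144, plus strand): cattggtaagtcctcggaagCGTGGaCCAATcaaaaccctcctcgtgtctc

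The HSPA5 stretch lay 86 to 28 bases before the RefSeq start and the CALR stretch 245 to 187 bases before it. Both HSP90B1 stretches lay upstream of the RefSeq start but inside an exon of GENCODE release 29, which starts this gene further upstream. The XBP1 stretch shared 15 bases and the HERPUD1 stretch 8 bases with an exon of its gene in that release. The windows of DNAJB9, PDIA4, SEL1L and EDEM1 held no exact match to either element. TGACGTGG, the core of the element bound by XBP1, was in 0.729% of all windows and in no window of the 10 genes, and the cyclic AMP response element TGACGTCA was in 1.85% and likewise in none. A match is a string of letters and not a measured binding site.

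The deposited tables label the values log2 FPKM, a read count corrected for transcript length and library size, and hold log2 of a value plus 1. Each library summed to about 1000000, as plain FPKM need not, so the values may have been rescaled; they are called FPKM after the label, and the read depth is not known. Library size was corrected with 1 factor per library, from the median ratio of genes to their mean over libraries, and levels below are these scaled FPKM. The level of KDM5A checked the labels of KDM5A plasmid against empty vector, but not those of wild-type against mutant. In knockout cells it was at 13452.5 to 16236.6 with the wild-type plasmid, 22816 to 23346 with the mutant plasmid and 12.2 to 15.3 with the empty vector. Parental cells had 13.3 and 17.7, a range that overlaps the empty-vector knockout cells, so the gene-level value does not check the knockout label. In 3 libraries, the 2 mutant ones and parental library 2, composition differed from that of the other 7: protein-coding genes took 88.1% to 88.8% of the total against 90.2% to 90.7%, and ribosomal protein genes 15.6% to 16.2% against 12.7% to 14.0%. All 6 epithelial markers (EPCAM, KRT8, KRT18, KRT19, CDH1, CLDN4) were expressed, with summed levels of 4399 to 4443 with the empty vector, 4645 to 4903 with wild-type KDM5A, 5357 to 5850 with the mutant and 4154 to 4707 in parental cells. Of the secretory goblet markers 1 of 5 passed the filter, with TFF3 at 0 in all 10 libraries, and of the plasma cell markers SDC1 alone did, with MZB1 at 0.865 or less. The 10 genes together made up 0.301% ± 0.00288 (SD, n = 3) of the deposited total in knockout cells with empty vector, 0.375% ± 0.00422 (n = 3) with wild-type KDM5A, 0.361% ± 0.0152 (n = 2) with the mutant and 0.337% ± 0.00602 (n = 2) in parental cells.

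The first comparison asks how the response differed in KDM5A-/- cells given the wild-type KDM5A plasmid. It concerns expression far above the parental level: KDM5A was at 13452.5 to 16236.6 with this plasmid and at 13.3 and 17.7 in parental cells. Of the 10 genes, 6 rose (HSPA5, HERPUD1, DNAJB9, HSP90B1, PDIA4 and CALR) and 0 fell, where 2.52% of all genes tested passed as higher, 2.02% as lower and 4.54% in either direction. The median log2 fold change of the 10 genes was 0.41, against 0.00074 over all genes. The tests come from limma across all genes with Benjamini-Hochberg adjustment, and a gene rose or fell where the adjusted p was under 0.05. Summed marker levels also differed between groups. The epithelial sum given above did not overlap between the empty-vector, wild-type and mutant libraries. The plasma cell sum, nearly all SDC1, was 42.8 to 45.3 with the empty vector, 46.8 to 55.6 with wild-type KDM5A, 44.4 to 46.6 with the mutant and 40.0 to 43.8 in parental cells. The summed level of 5 blood markers was 1.30 to 2.27 with the empty vector, 4.27 to 5.29 with wild-type KDM5A, 5.00 to 7.10 with the mutant and 1.92 to 2.35 in parental cells. Of these markers CD14 alone passed the filter, PTPRC reached 0.706 at most, and CD3E was at 0 in 9 of the 10 libraries. None of the 3 endothelial markers passed the filter. Their sum was 0.237 to 0.431 in knockout cells with the empty vector and 0.375 to 0.646 in parental cells. With wild-type KDM5A it was 0.508 to 0.816, which overlaps parental cells, and with the mutant 0.674 to 1.41. Fibroblast and goblet sums were instead lower with the mutant than with the empty vector. For fibroblast markers, nearly all COL1A1, the sum was 20.2 to 28.8 with the empty vector and 13.56 to 15.007 with the mutant. It was 17.46 to 24.3 with wild-type KDM5A and 14.95 to 22.3 in parental cells. For goblet markers it was 2.69 to 3.51 with the empty vector and 2.18 to 2.35 with the mutant. Wild-type KDM5A gave 2.53 to 3.39 and parental cells 2.44 to 2.84. The part of these markers in the results was not tested. In bulk RNA, fewer responding cells and less RNA per cell cannot be told apart.

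Chaperones and folding enzymes of the ER lumen held most of these genes. HSPA5 was at 633, 587 and 611 in the 3 empty-vector libraries and at 874, 923 and 926 in the 3 with wild-type KDM5A. It rose by 0.57 ± 0.05 on the log2 scale (SE, adjusted p = 0.00131), from a mean of 610.4 ± 23.1 (SD, n = 3) to 907.8 ± 29.02 (n = 3). The lowest library with the plasmid lay well above the highest without it. HSP90B1 (GRP94), the ER Hsp90 chaperone, was at 781, 699 and 729 against 962, 1011 and 1017. Its log2 fold change was 0.44 ± 0.09 (adjusted p = 0.0275), and the groups did not overlap. PDIA4 (ERp72), a protein disulfide isomerase, was at 262, 256 and 260.3 with the empty vector and 349, 361 and 359 with wild-type KDM5A. Its log2 fold change was 0.46 ± 0.04 (adjusted p = 0.00131). The libraries within each group lay closer together for PDIA4 than the gap between groups by far. CALR, the calcium-binding lectin chaperone calreticulin, was at 696, 686 and 703 against 891, 913 and 901. It rose by 0.38 ± 0.06 (adjusted p = 0.0108), again with no overlap.

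DNAJB9 (ERdj4), a co-chaperone of BiP, was at 23.8, 25.001 and 23.5 against 31.3, 34.5 and 37.2. It rose by 0.49 ± 0.07 (adjusted p = 0.0100), and per length its level was a small fraction of that of HSPA5. SDF2L1, which works with DNAJB co-chaperones of BiP, was at 166, 172 and 171 against 191, 193 and 201. Its groups did not overlap, but the log2 fold change of 0.20 ± 0.05 did not pass (adjusted p = 0.0732). SDF2L1 did pass in fits that omitted parental library 1 or 2, with an adjusted p of 0.0278 or 0.0273.

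The genes of ER-associated degradation were mixed. HERPUD1, a membrane scaffold of the degradation complex, was at 122, 106 and 111 with the empty vector and at 159.8, 183 and 191 with wild-type KDM5A. At 0.64 ± 0.07 (adjusted p = 0.00359) its log2 fold change exceeded that of every other of the 10 genes here. SEL1L, the partner of the ubiquitin ligase HRD1, was at 25.3, 29.2 and 25.4 against 36.2, 31.4 and 34.1. All libraries with the plasmid were higher, but 1 on each side lay close to the other group, and 0.34 ± 0.10 did not pass (adjusted p = 0.0931). EDEM1, which marks misfolded glycoproteins by trimming mannose, was at 15.2, 17.6 and 15.2 against 14.2, 12.2 and 18.6. Its groups overlapped, with a log2 difference of -0.11 ± 0.13 (adjusted p = 0.718). XBP1, the transcription factor gene, was at 121, 116 and 113 against 118, 122 and 127. These overlapped too, with a log2 difference of 0.07 ± 0.05 (adjusted p = 0.442).

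Counted by range alone, 8 of the 10 genes were higher in every wild-type library than in every empty-vector library, where 16.4% of all genes were. Not all 6 calls were equally firm. HSPA5, HERPUD1 and PDIA4 passed whichever library was left out, with adjusted p-values of at most 0.0131, 0.0250 and 0.0131. CALR lost its call when library 2 or 3 of either group was omitted (at most 0.0587), DNAJB9 when library 3 of the empty vector or library 2 of the wild-type plasmid was (0.0513 and 0.0514), and HSP90B1 without any 1 of the 6 libraries compared (at most 0.106). Omitting empty-vector library 3, or else library 2 of the wild-type plasmid, brought the count to 3. An alternative added after seeing the data left out both mutant libraries and parental library 2. The wild-type and empty-vector libraries were the same in that fit. The median log2 fold change of the 10 genes, 0.41, therefore could not change there and is no check of the result.

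**Figure D1:**
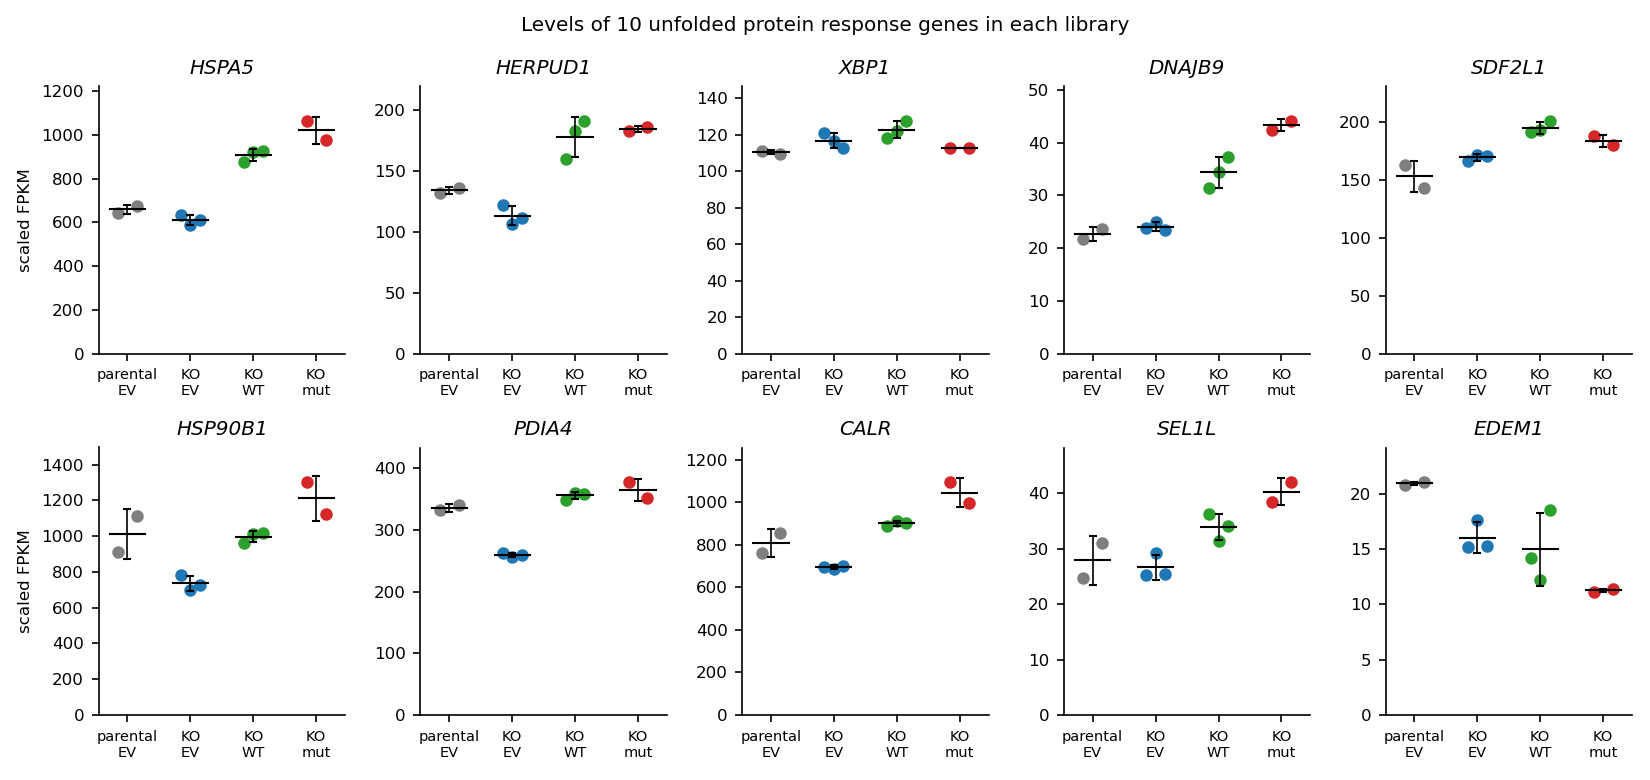
Levels of the 10 genes in each library, in scaled FPKM on a linear axis from 0, for parental cells with empty vector (n = 2) and knockout (KO) cells with empty vector (EV, n = 3), wild-type KDM5A (WT, n = 3) or mutant KDM5A (mut, n = 2). Points are libraries, long bars are means and error bars are SD; HSPA5 lies at 587 to 633 in EV and at 874 or more in every KDM5A library, while XBP1 stays between 109 and 127 in all 10.

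The second comparison sets the mutant KDM5A plasmid against the same 3 empty-vector libraries, so both plasmid comparisons share their controls. With the mutant, 7 of the 10 genes rose and 0 fell, where 9.48% of all genes passed as higher, 7.05% as lower and 16.5% in either direction. The median log2 fold change of the 10 genes was 0.58, against -0.0071 over all genes. Both mutant libraries are among the 3 that stood apart in protein-coding and ribosomal protein share, and the part of this in the result was not tested beyond the values given below.

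HSPA5 was at 1064 and 976 in the 2 mutant libraries, above every empty-vector library. Its log2 fold change was 0.74 ± 0.06 (adjusted p = 0.000426). HSP90B1 was at 1300.3 and 1123 and rose by 0.72 ± 0.10 (adjusted p = 0.00419). The mutant libraries lay apart from each other for this gene, yet both lay above all 3 controls. CALR, at 1094 and 997, rose by 0.59 ± 0.06 (adjusted p = 0.00162). PDIA4, at 377 and 352, rose by 0.49 ± 0.05 (adjusted p = 0.00115). Among the co-chaperones, DNAJB9 was at 42.5 and 44.1 and rose by 0.82 ± 0.08 (adjusted p = 0.00116), more than any other of the 10 genes. SDF2L1, at 187 and 179.9, did not pass (0.12 ± 0.06, adjusted p = 0.224), although both libraries lay above the controls.

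Among the degradation genes HERPUD1 was at 183 and 186 and rose by 0.70 ± 0.08 (adjusted p = 0.00240). SEL1L, at 38.5 and 42.0, rose by 0.58 ± 0.11 (adjusted p = 0.0115), with both libraries above the empty-vector libraries. EDEM1 lay on the other side: it was at 11.2 and 11.4, under all 3 controls, with a log2 difference of -0.47 ± 0.15 that did not pass (adjusted p = 0.0622). Without wild-type library 2 or 3 in the fit EDEM1 passed as lower (0.0429 and 0.0247). XBP1 was at 112.4 in both mutant libraries, just under the lowest control at 112.8, with a difference of -0.05 ± 0.05 (adjusted p = 0.532). By range, 8 genes lay above and 2 below the controls, where 23.3% and 23.6% of all genes did. The 7 genes that rose did so whichever library was left out, with SEL1L the weakest (adjusted p at most 0.0471).

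How large these differences were depended on how the libraries were scaled. Without a scaling factor the median gene lay 0.30 lower on the log2 scale with the mutant and 0.10 lower with wild-type KDM5A, so values are best read against those shifts. As deposited, wild-type KDM5A still left HSPA5 at 0.46 (adjusted p = 0.00185) and 6 of the 10 genes higher. With the mutant, HSPA5 was at 0.40 (0.00152), DNAJB9 at 0.49 and HERPUD1 at 0.36, with 5 genes higher and 2 lower, EDEM1 (-0.78, 0.00648) and XBP1 (-0.39, 0.00411). PDIA4 at 0.15 (0.0569) and SEL1L at 0.25 (0.109) lost their calls with the mutant, and SDF2L1 turned to -0.22 (0.0848). Under quantile normalization, which gives every library the same distribution, 5 genes were higher with each plasmid. There the mutant calls of HSPA5 (0.23, 0.0706) and CALR (0.09, 0.336) were lost, while DNAJB9 kept 0.82, and with wild-type KDM5A the call of CALR was lost (0.21, 0.0531). Over all genes, the split of higher against lower calls was 448 to 359 with wild-type KDM5A, 123 to 613 as deposited and 294 to 320 after quantile normalization. With the mutant it was 1685 to 1254, 458 to 6150 and 887 to 1223.

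Parental library 2, which shares the low protein-coding share of the mutant libraries without carrying a KDM5A plasmid, gives a further reference. It differed from parental library 1 by 0.05 on the log2 scale in the median of the 10 genes, with HSPA5 at 0.06, HERPUD1 at 0.04, DNAJB9 at 0.12, CALR at 0.16, HSP90B1 at 0.28, SEL1L at 0.32, PDIA4 at 0.04, EDEM1 at 0.01, XBP1 at -0.02 and SDF2L1 at -0.18. The mean of the mutant libraries exceeded parental library 2 by 0.60 for HSPA5, 0.44 for HERPUD1 and 0.85 for DNAJB9, but by 0.12 for HSP90B1 and 0.10 for PDIA4. It did so by 0.36 for SEL1L, 0.36 for SDF2L1, 0.29 for CALR and 0.04 for XBP1, while EDEM1 was at -0.84. Genotype and G418 also differ between the mutant libraries and this library. In another alternative added after seeing the data, the ribosomal protein share entered the fit as a covariate. There 7 of the 10 genes passed by limma with wild-type KDM5A and 0 with the mutant. With wild-type KDM5A 8 had an unadjusted p under 0.05, against 21% of all genes. With the mutant 7 did, against 11% (HSPA5 0.65, adjusted p = 0.122, and DNAJB9 0.67, 0.246). The ribosomal protein shares of the mutant and the empty-vector libraries do not overlap, so plasmid and share cannot be told apart in that fit.

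**Figure D2:**
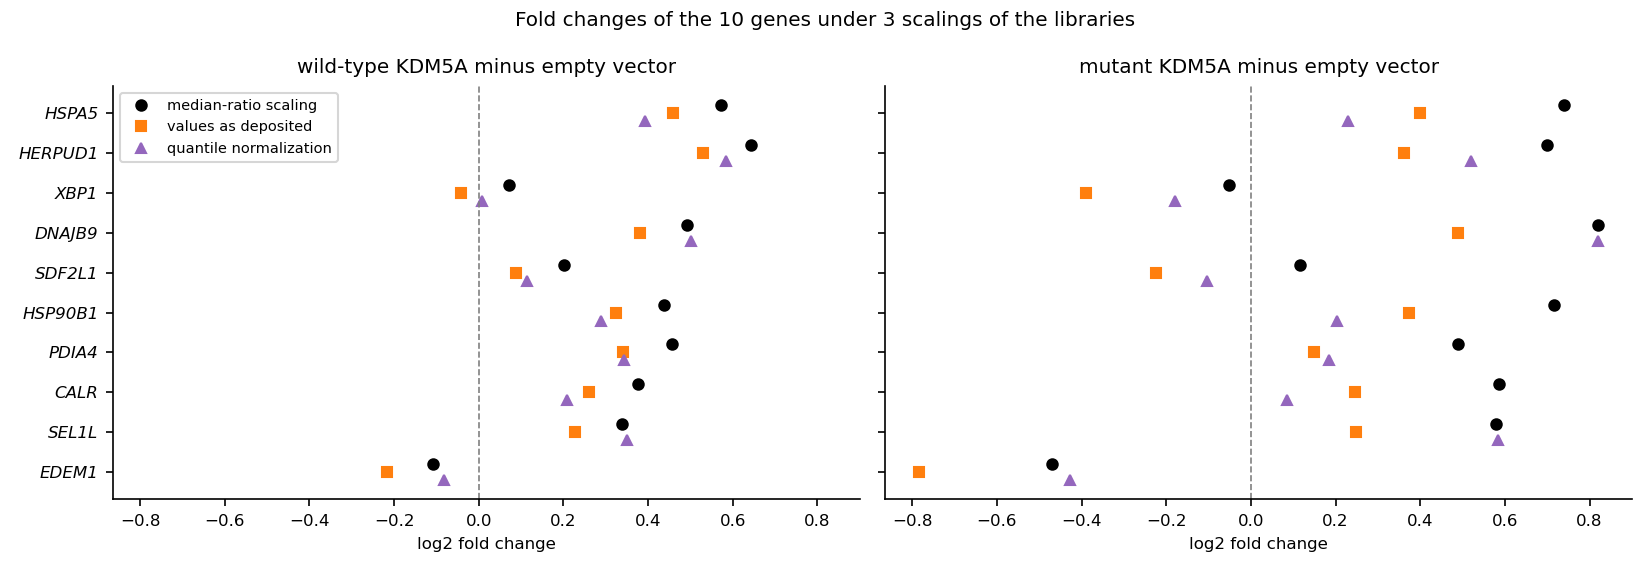
Log2 fold changes of the 10 genes for wild-type (left) and mutant KDM5A (right) against the empty vector, with libraries scaled by the median ratio (circles), as deposited (squares) or quantile normalized (triangles). With wild-type KDM5A HSPA5 runs from 0.39 to 0.57, CALR from 0.21 to 0.38, and XBP1 changes side (-0.043 to 0.07); with the mutant HSPA5 runs from 0.23 to 0.74 and SDF2L1 changes side (-0.22 to 0.12).

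Mutant and wild-type KDM5A were then compared directly. KDM5A itself was at 22816 to 23346 with the mutant plasmid and at 13452.5 to 16236.6 with the wild-type one. Ribosomal protein shares were 15.6% to 16.1% and 13.1% to 13.7%. Mutation, KDM5A level and library composition therefore cannot be told apart here. None of the 10 genes passed, and limma called 10 genes in all, 0.0562% of those tested. At an unadjusted p under 0.05 the count was 6 of the 10, where 20.2% of all genes were. By range 5 genes lay above and 3 below, where 19.5% and 19.4% of all genes did. HSPA5 was 0.17 higher with the mutant (95% interval 0.03 to 0.30, adjusted p = 0.174), and both mutant libraries lay above all 3 wild-type libraries. DNAJB9 was 0.33 higher (0.14 to 0.51, adjusted p = 0.0953), HSP90B1 0.28 higher (0.06 to 0.50, 0.161) and CALR 0.21 higher (0.07 to 0.35, 0.124). CALR passed when parental library 1 or 2 was left out of the fit (0.0430 and 0.0429). XBP1 differed by -0.12 (-0.24 to -0.01, adjusted p = 0.230) and EDEM1 by -0.36 (-0.70 to -0.02, 0.221). For PDIA4 the difference was 0.03, with an interval from -0.08 to 0.14, and for HERPUD1 0.06, from -0.13 to 0.25. For SDF2L1 it was -0.09 (-0.22 to 0.05) and for SEL1L 0.24 (-0.01 to 0.49). The direction was not stable to scaling: the median of the 10 genes was 0.11 here, -0.11 as deposited and -0.14 after quantile normalization, where HSPA5 was at -0.06 and -0.16. As deposited XBP1 passed as lower (-0.35, adjusted p = 0.0388).

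**Figure D3:**
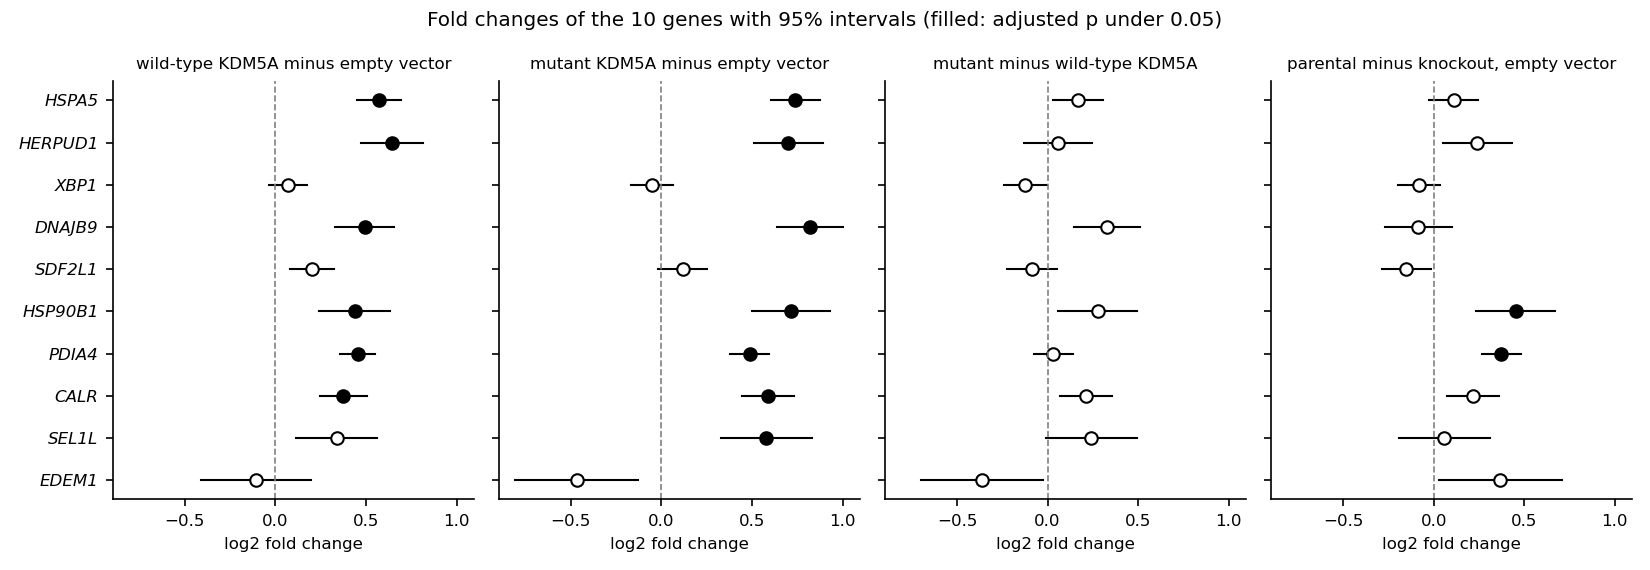
Log2 fold changes of the 10 genes in 4 comparisons, with 95% intervals from limma as horizontal lines; filled circles mark an adjusted p under 0.05. Of the 10 genes 6, 7, 0 and 2 are filled from left to right, and EDEM1 lies left of 0 in the first 3 panels and right of it in the last.

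Parental cells and KDM5A-/- cells, both with empty vector, differed in 2 of the 10 genes, both higher in parental cells, where 4.09% of all genes passed as higher, 4.84% as lower and 8.94% in either direction. PDIA4 was at 332 and 341 in parental cells against 256 to 262 in the knockout cells. Its log2 difference was 0.37 ± 0.05 (adjusted p = 0.00276), and it passed whichever library was left out. HSP90B1 was at 913 and 1112 in parental cells against 699 to 781. Its difference was 0.45 ± 0.10 (adjusted p = 0.0225), and it lost its call without empty-vector library 2 (0.0763) or 3 (0.0739) or without parental library 2 (0.112), the library that stood apart. CALR, at 764 and 856 against 686 to 703, did not pass (0.22 ± 0.06, adjusted p = 0.0665). CALR did pass in fits omitting parental library 1 (0.0183) or either mutant library (0.0489 in both).

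HSPA5, at 644 and 674 in parental cells, lay just above the knockout libraries and did not pass (0.11, adjusted p = 0.288). HERPUD1 was at 132 and 136 (0.24, 0.109) and EDEM1 at 20.8 and 21.0, its highest level of the 4 groups (0.37, 0.159). DNAJB9 at 21.7 and 23.6 (-0.09, 0.564) and SEL1L at 24.7 and 31.1 (0.06, 0.794) overlapped the knockout libraries. SDF2L1, at 162 and 143, lay below them (-0.15, 0.159) and passed without parental library 1 (-0.24, 0.0316). XBP1 was at 111 and 109, also below them (-0.08, 0.374). By range 6 genes were higher and 2 lower in parental cells, where 20.6% and 21.9% of all genes were.

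The order of levels across the 4 groups differed between genes. Between the KDM5A plasmid groups and parental cells, genotype, G418 and plasmid differed together and cannot be told apart. The means of HSPA5, HERPUD1, CALR and SEL1L were lowest in knockout cells with empty vector, followed by parental cells, wild-type KDM5A and the mutant. The last step turned with scaling for 3 of them, to -0.059 for HSPA5, -0.17 for HERPUD1 and -0.0147 for CALR as deposited and to -0.16, -0.0652 and -0.12 after quantile normalization. For SEL1L the first step turned, to -0.0218 as deposited and -0.10 without parental library 2. For HSPA5 the first step also turned, after quantile normalization. For HSPA5 the step between empty-vector knockout and parental cells and that between the 2 plasmids did not pass, while both plasmids passed against parental cells (0.46, adjusted p = 0.00186, and 0.63, 0.000663). HERPUD1 was higher than parental with wild-type KDM5A (0.40, 0.0141) and with the mutant (0.46, 0.0102). As deposited and after quantile normalization the mutant value was 0.20 (0.123) and 0.27 (0.0801), and that of wild-type KDM5A passed in both. Without wild-type library 2, parental library 1 or parental library 2 the wild-type value missed the threshold (0.05002, 0.0523 and 0.0511). DNAJB9 was lowest in parental cells and was higher with wild-type (0.58, 0.00272) and with mutant KDM5A (0.91, 0.000462). SDF2L1 was also lowest in parental cells and was highest with wild-type KDM5A, and passed against parental with either plasmid (0.35, 0.00657, and 0.27, 0.0250). SDF2L1 with the mutant was at 0.0095 (0.963) as deposited and 0.046 (0.742) after quantile normalization, and lost its call without mutant library 1 (0.0944) or parental library 2 (0.0758). With wild-type KDM5A it was at 0.32 (0.0574) as deposited.

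For HSP90B1 and PDIA4 the order was another one, since both were higher in parental cells than in empty-vector knockout cells. HSP90B1 with wild-type KDM5A, at 997 ± 30.2 (SD, n = 3), overlapped parental cells at 1013 ± 141 (n = 2), with a log2 difference of -0.02 that did not pass (adjusted p = 0.935). PDIA4 was at 356.3 ± 6.06 (n = 3) and 336.3 ± 6.46 (n = 2) in the same groups; the wild-type libraries lay above the parental ones, and the difference did not pass (0.08, adjusted p = 0.281). With the mutant both genes lay above parental cells by range and did not pass (HSP90B1 0.26, 0.115; PDIA4 0.12, 0.155). CALR passed against parental cells with the mutant (0.37, 0.00812) and not with wild-type KDM5A (0.16, 0.130), and SEL1L likewise (0.52, 0.0191, and 0.28, 0.126). The mutant calls depended on scaling: CALR was at 0.11 (0.136) as deposited and -0.00038 after quantile normalization, and SEL1L at 0.27 (0.137) as deposited, none of which passed. SEL1L also lost its call without mutant library 2 (0.0738) or parental library 1 (0.0934). EDEM1 ran the other way, highest in parental cells and lowest with the mutant, a difference that passed (-0.84, 0.00949). In all, knockout cells with wild-type KDM5A had 4 of the 10 genes above their parental level and 0 below it by the test. Of all genes 8.03% and 6.52% passed. With the mutant 6 were higher and 1 lower, where 10.5% and 9.06% of all genes were. Genotype, G418 and plasmid differed together in both. XBP1, in scaled values, passed in none of the 6 comparisons between groups.

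The rest of the pathway was read from 9 lists, in the same fit and with the same adjustment over all genes, of which 2.52% passed as higher and 2.02% as lower with wild-type KDM5A and 9.48% and 7.05% with the mutant. Among the sensors and transducers, 11 of 12 listed genes were tested, and 0 passed with wild-type KDM5A by limma, with 3 higher and 1 lower at an unadjusted p under 0.05, where 20.5% of all genes were. ERN1 was at 0.19 (adjusted p = 0.287), ATF6 at -0.17 (0.180) and EIF2AK3 at 0.27 (0.165). With the mutant, 1 passed: ERN2, the gut form of IRE1, from a mean of 0.159 to 3.40 scaled FPKM (1.90, adjusted p = 0.0124), and that call was lost without mutant library 2. It is a low level, beside which ATF6 (-0.17, 0.147), EIF2AK3 (0.26, 0.138) and ERN1 (-0.01, 0.945) did not pass.

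Further chaperones and co-chaperones of the ER were mostly higher where they passed: 7 of 16 rose and 0 fell with wild-type KDM5A (median 0.21). CRELD2, a secreted ER stress protein, rose from 67.1 to 102.5 (0.60, adjusted p = 0.000653). HYOU1 (GRP170), the nucleotide exchange factor of BiP, rose from 198.5 to 277 (0.48, 0.00176). MANF rose by 0.50 (0.00541) and DNAJC3, the co-chaperone P58IPK, by 0.46 (0.00593). With the mutant 8 of 16 rose (median 0.30), led by CRELD2 (0.62), HYOU1 (0.48), DNAJB11 (0.72) and DNAJC3 (0.41). Of the 17 disulfide isomerases and oxidases, 6 rose with wild-type KDM5A (median 0.26), among them P4HB, from 842.8 to 1114 (0.40, 0.00834), TXNDC5 (0.26), PDIA6 (0.34) and QSOX1 (0.33). With the mutant 10 rose and 1 fell (median 0.27). PRDX4 (0.56), P4HB (0.53), PDIA6 (0.49) and TXNDC5 (0.27) had the smallest p-values. TXNDC5 turned to -0.07 as deposited and P4HB to -0.02 after quantile normalization.

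Of 20 other degradation genes tested, 2 rose with wild-type KDM5A (median 0.17), VIMP (SELENOS) from 88.9 to 128.1 (0.52, adjusted p = 0.00547) and SELK (SELENOK) from 88.6 to 124.2 (0.48, 0.0112). Both encode selenoproteins of the degradation complex. With the mutant 4 rose (median 0.05): SELK (0.80), VIMP (0.68), OS9 (0.41) and DERL1 (0.51). The translocon, through which proteins enter the ER, and the signal peptidase had 5 of 17 genes higher with wild-type KDM5A (median 0.28), among them SEC61A1 (0.39), SEC11C (0.64), SSR1 (0.28) and TRAM1 (0.35). With the mutant 13 of 17 rose (median 0.36), led by SSR4 (0.46), SEC61B (0.70), SEC61A1 (0.36) and SEC11C (0.80). For N-glycosylation, 7 of 15 rose with wild-type KDM5A (median 0.20), led by RPN2 (0.42, adjusted p = 0.00239), RPN1 (0.30), GFPT1 (0.39) and STT3A (0.40). With the mutant 7 also rose (median 0.27), led by RPN2 (0.49), DDOST (0.45), OSTC (0.59) and STT3A (0.57). COPII coat and retrieval genes, which carry cargo between ER and Golgi, had 5 of 18 higher with wild-type KDM5A (median 0.18): SURF4 (0.28), SEC13 (0.22), SEC24D (0.43), KDELR2 (0.25) and KDELR1 (0.20). With the mutant 6 rose and 2 fell, SEC24B (-0.49) and SEC16A (-0.31) being the 2 lower. KDELR2 (0.33), SEC13 (0.25) and SURF4 (0.25) were higher there, but each turned negative as deposited (-0.01, -0.09 and -0.09).

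The PERK arm did not move in 1 direction. With wild-type KDM5A 1 of 11 tested genes rose, DDIT4 (0.39), and 3 fell, CEBPB (-0.32), PPP1R15B (-0.29) and CHAC1 (-0.41), which encodes an enzyme that degrades glutathione. With the mutant 4 rose and 4 fell (median -0.02). CEBPB (-0.49), PPP1R15B (-0.48) and CHAC1 (-0.67) were again lower. ATF4, the transcription factor of this arm, was 0.33 higher, and -0.01 as deposited or -0.14 after quantile normalization. DDIT3 was at 109 to 115 with the empty vector, 130 to 135 with wild-type KDM5A and 145 to 172 with the mutant. ATF3 was at 141 to 159, 176 to 181 and 187 to 248. Neither passed with wild-type KDM5A. By range, 5 genes of this list lay above and 4 below the controls with wild-type KDM5A, where 16.4% and 16.2% of all genes did. With the mutant 4 lay above and 4 below, where 23.3% and 23.6% did. The list of cytosolic heat shock genes, which answer to unfolded protein outside the ER, also holds HSPD1 and HSPE1, whose proteins are mitochondrial. It included larger fold changes than any of the 10 ER genes. With wild-type KDM5A 7 of 12 rose (median 0.38), led by HSPA1B (1.95), DNAJB1 (0.80), HSPA1A (2.03) and BAG3 (0.46). With the mutant 12 of 12 rose (median 0.56), with HSPA1B at 2.59, DNAJB1 at 1.04, HSPA1A at 2.89 and BAG3 at 0.57. After quantile normalization 6 were still higher and 0 lower with the mutant (median 0.23). HSPA8 (-0.08), HSP90AA1 (-0.05), HSPB1 (-0.06) and HSPD1 (-0.08) turned there and did not pass. HSPA1A and HSPA1B are near-identical copies, and how reads were shared between them is not given in the sources used here.

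**Figure D4:**
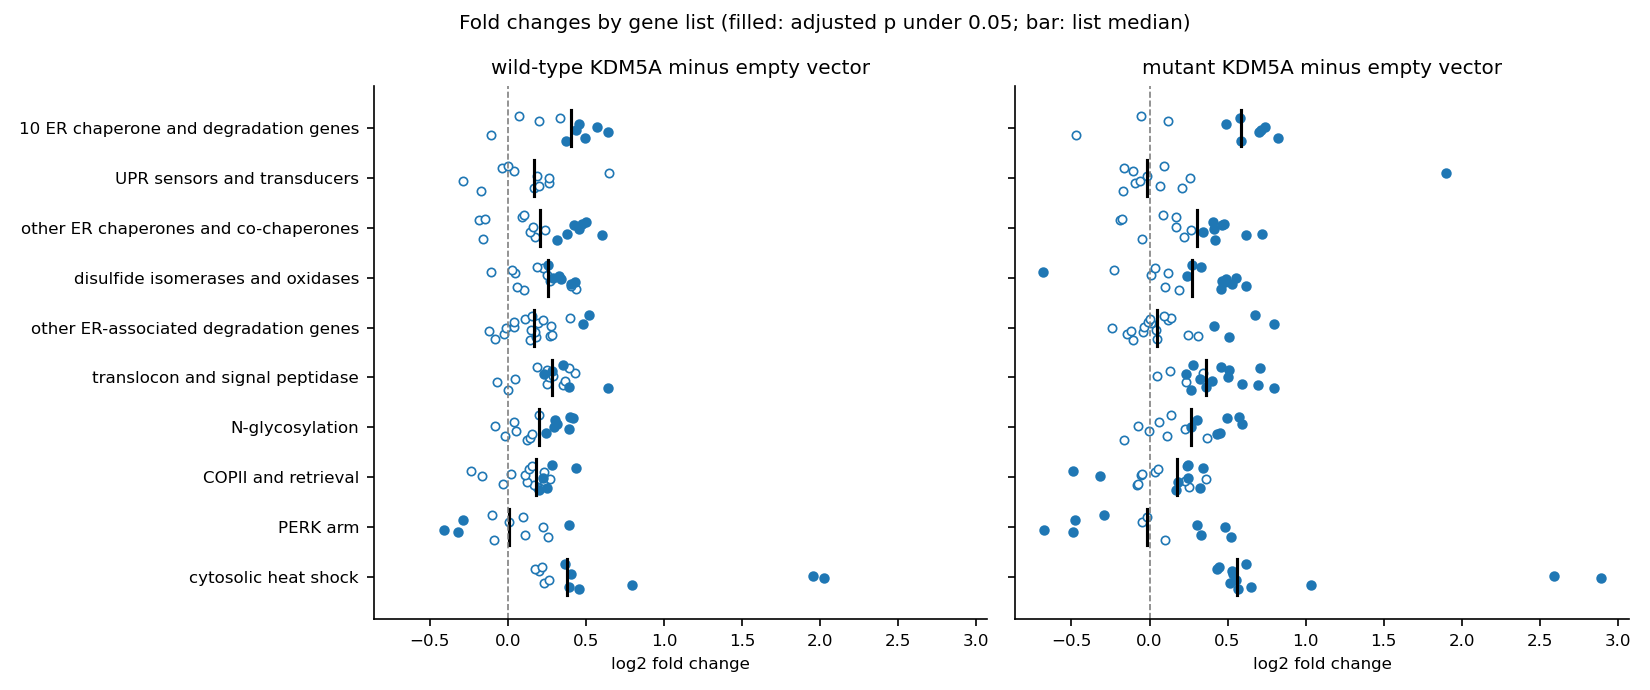
Log2 fold changes of every tested gene in the 10 genes (top row) and the 9 pathway lists, for wild-type (left) and mutant KDM5A (right) against the empty vector; filled circles mark an adjusted p under 0.05 and black bars the list medians. The 10 genes have medians of 0.41 and 0.58, the PERK arm spreads to both sides of 0, and HSPA1A and HSPA1B lie farthest right.

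These list counts moved with single libraries and with scaling. With wild-type KDM5A, leaving out 1 of the 6 libraries compared gave 4 or 5 chaperones, 0 to 4 isomerases and oxidases (0 without wild-type library 3), 1 to 3 translocon genes, 1 to 3 N-glycosylation genes, 0 to 2 COPII genes, 5 heat shock genes, and 0 higher and 1 lower in the PERK arm. Leaving out either parental library gave 5 degradation and 9 translocon genes. With the mutant, leaving out mutant library 1 gave 5 translocon genes and 4 isomerases and oxidases. It gave 2 degradation genes, 2 COPII genes higher and 1 lower, 7 chaperones and 9 heat shock genes. Without empty-vector library 3 the mutant had 8 translocon genes, and without empty-vector library 1 or 3 or wild-type library 1 or 3 it had 3 COPII genes higher. Leaving out any 1 empty-vector or wild-type library gave 2 higher genes in the PERK arm. As deposited, the mutant had 1 sensor higher and 6 lower (median -0.33), 2 chaperones higher and 2 lower, 2 and 4 isomerases and oxidases, 2 and 9 degradation genes, 4 and 1 translocon genes, 2 and 2 N-glycosylation genes, 0 and 6 COPII genes, 0 and 7 PERK arm genes and 9 and 0 heat shock genes. With wild-type KDM5A the values as deposited gave 3 chaperones, 1 isomerase or oxidase, 2 degradation genes, 1 translocon gene, 1 N-glycosylation gene, 0 COPII genes and 6 heat shock genes higher, with 0 lower, and 0 higher and 3 lower in the PERK arm. After quantile normalization the mutant had 5 chaperones, 5 isomerases and oxidases, 4 degradation genes, 5 translocon genes and 6 heat shock genes higher with 0 lower, 4 and 1 N-glycosylation genes, 1 and 2 COPII genes and 1 and 4 PERK arm genes. Wild-type KDM5A had 5, 3, 2, 4 and 6 higher in the same 5 lists. It had 2 N-glycosylation and 2 COPII genes higher, and 0 higher and 2 lower in the PERK arm. Over all genes, as deposited, 458 were higher and 6150 lower with the mutant, and 123 and 613 with wild-type KDM5A. After quantile normalization these were 887 and 1223, and 294 and 320. Between the 2 KDM5A plasmids, which also differed in KDM5A level and ribosomal protein share, limma called 0 genes in every list. At an unadjusted p under 0.05, 8 translocon genes were higher and 2 lower, and 11 heat shock genes were higher. The other lists had at most 3 higher and 4 lower. Over all genes 20.2% had such a p in either direction. As deposited, 3 sensors, 4 isomerases and oxidases, 5 degradation genes and 2 translocon genes were lower with the mutant than with wild-type KDM5A. So were 1 N-glycosylation gene, 5 COPII genes and 5 PERK arm genes, and 2 heat shock genes were higher. Over all genes 1383 were lower and 107 higher there, with a median log2 difference of -0.20. Without parental library 1 or 2 in the fit, 5 heat shock, 3 translocon, 2 N-glycosylation, 1 isomerase or oxidase and 1 PERK arm gene were higher. Between parental and knockout cells 3 chaperones, CRELD2 (0.29), MANF (0.36) and UGGT2 (0.34), were higher in parental cells (0 without empty-vector library 3, 1 without parental library 1), and the other lists had at most 4 genes higher and 2 lower.

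The promoter elements shown above were also taken as a list, of 25 tested genes outside the 10 whose window holds ERSE or ERSE-II. With wild-type KDM5A 5 rose and 0 fell (median 0.15): CRELD2, HYOU1, PDIA6 and CANX (0.32), all in the pathway lists, and FICD (0.62), an ER enzyme that modifies BiP. With the mutant 8 rose and 1 fell, RAD9A (-0.48), and the median was 0.20. As deposited 3 rose with wild-type KDM5A, where 123 of all genes rose and 613 fell. With the mutant 1 rose and 8 fell there, where 458 of all genes rose and 6150 fell. Leaving out mutant library 1 brought the mutant's count to 4 higher, and leaving out any 1 of the 6 libraries compared brought that of wild-type KDM5A to 2 or 3. Among the 10 genes, HSPA5, HERPUD1, HSP90B1 and CALR hold an element and rose with wild-type KDM5A. XBP1 and SDF2L1 hold one and did not pass. DNAJB9 and PDIA4 have no exact match in the window and rose.

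Genes whose profile over the 10 libraries lay closest to that of HSPA5 were found by the root mean square distance between log2 values centred on each gene's own mean, where HSPA5 itself has a root mean square of 0.309. Outside the 10 genes the closest were VIMP (0.0757), SELK (0.0868), XXbac-BPG181M17.6 (0.0880), DNAJA1 (0.0887) and CDK2AP2 (0.0905). VIMP averaged 88.9 with the empty vector, 128.1 with wild-type KDM5A, 142.5 with the mutant and 95.7 in parental cells. Within the 10 genes HERPUD1 was closest (0.0829), followed by DNAJB9 (0.116) and CALR (0.123). PDIA4 (0.172) and HSP90B1 (0.177) were farther away. XBP1 (0.299) and EDEM1 (0.558) were farthest. Libraries share group and scaling, so these distances describe the tables and carry no test.

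The deposited loci of all 10 genes had the same start and end as in GENCODE release 29 on GRCh38. HSPA5 spans chr9:125234853-125241330 on the minus strand and HERPUD1 chr16:56932048-56944863 on the plus strand. XBP1 lies at chr22:28794555-28800597 and EDEM1 at chr3:5187646-5219957. Exonic length ran from 1099 bases for SDF2L1 to 9559 for SEL1L, which FPKM divides out. Pseudogenes that could take reads from these genes were low in every library: HSP90B2P was at 0.292 to 1.25 scaled FPKM, HSP90B3P at 0.496 or less, CALR4P at 0.398 or less and XBP1P1 at 0.304 or less.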

How the data were processed

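Per the labels, RNA of 10 HCT116 libraries was extracted with Trizol and sequenced on an Illumina machine. The submitters' processing notes name Cufflinks 2.2.1, STAR 2.7.1a, GATK 4.1.2 and Picard, and GRCh38 as the build; annotation and strand setting are not given in the sources used here. The authors deposited log2 FPKM per locus (60141 loci, 57993 symbols); the values are log2 of a value plus 1, and these sum to 999975 to 1000008 per library, so no read counts or depth were known. Values were made linear, summed over loci of a symbol and divided by a library factor (median ratio to geometric means, 13651 genes). Genes at 1 or more in 2 libraries were kept (17779). limma 3.58.1 in R 4.3.3 (trend) was fitted to log2(value + 1) of all 10 libraries, with 6 residual and 2.99 prior degrees of freedom, two-sided, with Benjamini-Hochberg adjustment per comparison; the script was tested on simulated data. Fold changes are on that scale and understate low genes. Python 3.11.15, numpy 2.4.6, pandas 2.3.3 and matplotlib 3.10.9 did the rest. The members and lists were chosen with earlier results of these data known. Up to 4 genes of smallest p were named per list among those that passed (up to 2 where none did), and 5 by likeness to HSPA5. Further genes were named beyond this rule after their values were seen. These were KDELR1, SEC16A, EIF2AK3, UGGT2, DDIT3, ATF3, HSPA8, HSP90AA1, HSPB1, HSPD1 and the genes with a promoter element. Alternatives were 2 other scalings, pseudocounts of 0.5 and 0.1, other filters, array weights, only the libraries compared, a replicate block and leaving out each library.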

Additional observations from a re-analysis of the deposited data

How the results depend on the processing

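The number of the 10 genes that passed ranged over the fits leaving out 1 library from 3 to 7 for wild-type KDM5A against the empty vector, 0 to 1 for mutant against wild-type and 1 to 4 for parental against knockout cells. It was 1 as deposited for mutant against wild-type; 1 without a filter, 1 with only the libraries compared and 0 with the ribosomal protein covariate for parental against knockout cells; 0 with that covariate for the mutant against the empty vector; 2 with it for wild-type KDM5A against parental cells; and 3 with array weights, 0 with only the libraries compared, 4 after quantile normalization and 3 as deposited for the mutant against parental cells.

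Genes called in all, 807 for wild-type and 2939 for mutant KDM5A against the empty vector, 10 between plasmids, 1589 for parental against knockout cells and 2586 (wild-type) and 3481 (mutant) against parental cells, ranged over the fits leaving out 1 library from 178 to 1058, 1215 to 3466, 5 to 970, 685 to 1904, 1433 to 2996 and 2035 to 3148. With array weights they were 2101 for wild-type KDM5A, 1042 for parental cells, 3 between plasmids and 1289 for the mutant against parental cells. With only the libraries compared they were 1689, 1838, 214, 464, 1653 and 1, in the order above. Between plasmids they were 3 at a mean of at least 5, 93 without a filter, 6 after quantile normalization and 1490 as deposited, where the mutant had 6608. With the covariate they were 15 for the mutant, 1 between plasmids, 96 for parental cells and 624 for wild-type KDM5A against parental cells. Without the mutant libraries and parental library 2 they were 1690 for wild-type KDM5A and 1047 for parental cells. Libraries of the same replicate number did not deviate together (r from -0.0892 to 0.0509 over 13 pairs), so numbers do not pair them; a replicate block gave 214, 1109, 1, 556, 1370 and 2235 genes, and 4, 7, 0, 1, 3 and 6 of the 10. The cause of these moves was not tested.

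Directions reversed as follows. With wild-type KDM5A XBP1 was at -0.043 as deposited, and EDEM1 ran from -0.264 to 0.0212 over the fits leaving out 1 library (the last without wild-type library 2). With the mutant SDF2L1 was at -0.22 as deposited and -0.10 after quantile normalization. Between plasmids, values as deposited were -0.11 for the median, -0.059 for HSPA5, -0.17 for HERPUD1, -0.19 for PDIA4 and -0.0147 for CALR; after quantile normalization -0.14, -0.16, -0.0652, -0.16 and -0.12, and -0.0854 for HSP90B1. Leaving out 1 library gave PDIA4 at -0.0167 (without mutant library 1) to 0.0823 and HERPUD1 at -0.0184 (without wild-type library 1) to 0.110, and with the covariate HERPUD1 at -0.10, SDF2L1 at 0.10 and PDIA4 at -0.0016. In parental cells SEL1L was at -0.0218 as deposited, -0.10 without parental library 2 to 0.218 without parental library 1, -0.11 with the covariate and -0.10 without the 3 libraries apart; HSPA5 was at -0.0711 after quantile normalization and SDF2L1 at 0.0038 with the covariate. Against parental cells, HSP90B1 with wild-type KDM5A was at 0.01 without wild-type library 1, 0.13 without parental library 2, 0.18 with the covariate and 0.13 without the 3 libraries apart. With the mutant XBP1 was at -0.23 and PDIA4 at -0.14 as deposited, and after quantile normalization XBP1 at -0.11, HSP90B1 at -0.10, PDIA4 at -0.14 and CALR at -0.00038. Read depth is unknown, so counting error could not be set against these values.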
